A study of Mus musculus with 15 samples.

Results

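Cholesterol and fatty acids are both built from acetyl-CoA in the cytosol, and 28 mouse genes of these routes, listed by name, were followed through cerebellar granule neuron precursors and medulloblastoma cells. By role, 7 of the listed genes encode the mevalonate steps up to farnesyl diphosphate, 3 the steps through squalene to the first sterol ring, 8 the conversion of lanosterol to cholesterol, 4 regulators and a sterol carrier, and 6 the synthesis, elongation and desaturation of fatty acids. Of the 28, 27 were found among the 21889 genes of the count table, and all 27 were among the 15259 genes expressed strongly enough to be tested. Hmgcs1, which encodes the cytosolic HMG-CoA synthase, was not analysed here. The 27 genes held between 112 reads (Tm7sf2) and 65839 reads (Scd2) in a library.

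Sterol synthesis is controlled by SREBP transcription factors, which are made as precursors in the membrane of the endoplasmic reticulum. When sterol is plentiful, INSIG proteins hold the SREBP precursor and its escort SCAP in that membrane, and when sterol runs low the precursor moves to the Golgi, is cut and enters the nucleus. SREBP-2, from Srebf2, is best known for switching on sterol genes, and SREBP-1, from Srebf1, for switching on fatty acid genes, with Srebf1 itself also a target of the oxysterol receptors LXR. Because the blood-brain barrier keeps out lipoprotein cholesterol, the brain makes its own, most of it in glia during myelination. Sterols also take part in Hedgehog signalling through Smoothened, the pathway that drives division of granule neuron precursors and that is overactive after loss of Ptch1.

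Poly(A) RNA was sequenced from 15 libraries, 3 in each of 5 groups, all from cerebellar cells fractionated on Percoll. Precursors were taken at E15.5, in the embryo, from animals with the genotype label Math1-GFP, a reporter for the precursor gene Atoh1, and at postnatal days 1, 7 and 14 (P1, P7, P14) from animals labelled WT. The tumour group (MB) was medulloblastoma cells from mice labelled Ptch1 heterozygous, with no age given. The E15.5 group thus differs from the later ages in genotype label as well as age, and these cannot be told apart. Whether animals were pooled, and whether replicates came from separate animals, is not given in the sources used here, so p-values measure the spread between these libraries only.

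Gene counts ranged from 12597472 to 43443132 reads per library, and levels are given as CPM, reads scaled to a common library size. Markers of granule neuron precursors were present in every library, with a summed level of 2855 to 4529 CPM at E15.5, 3960 to 4634 at P1, 6253 to 7928 at P7, 4722 to 5280 at P14 and 5608 to 6059 in MB. Single markers differed from the sum. Atoh1 was at 123.6 to 138.5 CPM at E15.5, 10.9 to 13.1 at P14 and 235.8 to 321.8 in MB. Neurod1 was at 1146 to 1868 CPM at P7 and 295 to 573 in MB. By the test described below, 2 of the 7 markers were higher and 2 lower in MB than at P7, against 13.7% and 20.7% of all genes. Ptch1 itself was at 202, 341 and 349 CPM in MB and 265, 252 and 340 CPM at P7, and a whole-gene count does not separate the altered allele from the intact one. Other cell types were also present: 12 oligodendrocyte markers summed to at most 136 CPM at E15.5, 689 to 4760 at P1, 1169 to 2356 at P7, 7377 to 7985 at P14 and 699 to 988 in MB, and none was at 0 in every library of a group. The library labelled P1 replicate 3 held the 4760 CPM and lay nearer to P14 on the first principal component than the other P1 libraries did. In 6 libraries (E15.5 replicates 1 and 3, all of P7 and MB replicate 1) the gene Tsnax was almost uncounted in the gene table, at no more than 0.273% of its count over transcripts against at least 92.4% in the other 9, so those libraries formed a separate counting set. In bulk RNA, fewer cells of a type and less RNA per cell cannot be told apart.

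SREBP factors bind sterol regulatory elements together with the factor NF-Y, whose site is the CCAAT box, so the promoters are shown before the values. RefSeq promoter windows (build GRCm38.p6, the 250 bases before each start) were matched for 22 of the 28 genes, with 27 windows. CCAAT, on either strand, was in 19 of these 27 windows and in at least 1 window of 18 of the 22 genes, against 33.85% of all 32851 mouse windows of this length. The gene windows were richer in G and C (median 62.8%) than all windows (52.4%), and among all windows of 60% to 70% G and C 32.7% held CCAAT, with 10 of 15 gene windows in that range. The SREBP-type element TCACCCCA was in the windows of Hmgcs1 and Srebf2 and in 1.342% of all windows, and CACGTG was in those of Dhcr7, Hsd17b7, Insig1 and Sc5d and in 6.021% of all. The windows of Acly, Acaca, Acat2 and Elovl6 held neither CCAAT nor TCACCCCA. A match of letters is a description and not a binding site. Windows are shown 5′ to 3′ on the gene's strand for Srebf2 and Insig1, the regulators, for Mvk, Mvd and Cyp51, enzymes that were strongly lower in MB, and for Fasn, which was not. Capitals mark CCAAT, its reverse complement ATTGG, and TCACCCCA.
Srebf2, chr15:82147019-82147268, plus strand: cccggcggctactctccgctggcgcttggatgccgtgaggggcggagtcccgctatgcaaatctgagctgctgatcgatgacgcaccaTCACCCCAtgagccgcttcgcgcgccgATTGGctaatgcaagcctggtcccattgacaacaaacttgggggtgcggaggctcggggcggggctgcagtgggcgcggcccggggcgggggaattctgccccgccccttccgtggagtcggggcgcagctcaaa
Insig1, chr5:28071162-28071411, plus strand: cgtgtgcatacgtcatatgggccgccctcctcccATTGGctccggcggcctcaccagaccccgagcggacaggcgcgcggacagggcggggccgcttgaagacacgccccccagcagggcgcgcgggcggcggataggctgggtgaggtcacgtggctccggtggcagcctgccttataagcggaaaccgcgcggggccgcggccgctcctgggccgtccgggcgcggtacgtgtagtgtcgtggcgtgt
Mvk, chr5:114444019-114444268, plus strand: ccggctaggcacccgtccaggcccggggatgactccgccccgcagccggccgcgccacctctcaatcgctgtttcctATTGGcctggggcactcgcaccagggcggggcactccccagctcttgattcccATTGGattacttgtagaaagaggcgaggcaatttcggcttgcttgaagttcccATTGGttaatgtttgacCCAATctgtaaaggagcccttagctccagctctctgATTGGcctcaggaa
Mvd, chr8:122443423-122443672, minus strand: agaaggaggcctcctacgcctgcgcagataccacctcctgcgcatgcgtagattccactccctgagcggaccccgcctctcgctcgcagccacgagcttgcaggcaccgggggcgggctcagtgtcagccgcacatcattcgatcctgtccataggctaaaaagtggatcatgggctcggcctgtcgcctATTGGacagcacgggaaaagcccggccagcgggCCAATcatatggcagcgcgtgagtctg
Cyp51, chr5:4104698-4104947, minus strand: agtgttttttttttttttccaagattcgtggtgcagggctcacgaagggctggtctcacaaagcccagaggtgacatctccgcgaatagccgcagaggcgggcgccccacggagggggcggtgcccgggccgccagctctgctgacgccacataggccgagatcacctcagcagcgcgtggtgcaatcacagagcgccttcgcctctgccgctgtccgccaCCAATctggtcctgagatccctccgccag
Fasn, chr11:120824548-120824797, minus strand: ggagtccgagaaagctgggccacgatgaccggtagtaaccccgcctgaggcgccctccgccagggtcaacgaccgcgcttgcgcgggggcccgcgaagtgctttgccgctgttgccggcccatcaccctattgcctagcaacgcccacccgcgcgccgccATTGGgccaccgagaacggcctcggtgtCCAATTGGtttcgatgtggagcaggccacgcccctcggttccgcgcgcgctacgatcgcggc
Mvk held 5 CCAAT boxes, 4 of them on the reverse strand at 173, 120, 67 and 14 bases before the start, and Fasn held 3, including an overlapping pair in opposite directions. The single TCACCCCA of Srebf2 began 162 bases before its start, with its CCAAT box at 135.

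In P7 precursors, Scd2 stood first among the 26 genes that could be ranked by level per length, at 264.6 CPM per kilobase of exon. Scd2 encodes the brain form of stearoyl-CoA desaturase, which makes monounsaturated fatty acids. ATP citrate lyase (Acly, 92.5 CPM per kilobase), which makes the acetyl-CoA for both routes, squalene epoxidase (Sqle, 88.2) and Srebf2 (87.6) followed. Acetyl-CoA carboxylase (Acaca, 6.89), which makes malonyl-CoA, was the lowest. In MB the order had changed at the top: Srebf1 stood first at 256.5 CPM per kilobase, having been 10th at P7 at 42.9, and Scd2 followed at 125.8. Scd1 was last in MB at 2.11 CPM per kilobase.

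**Figure D1:**
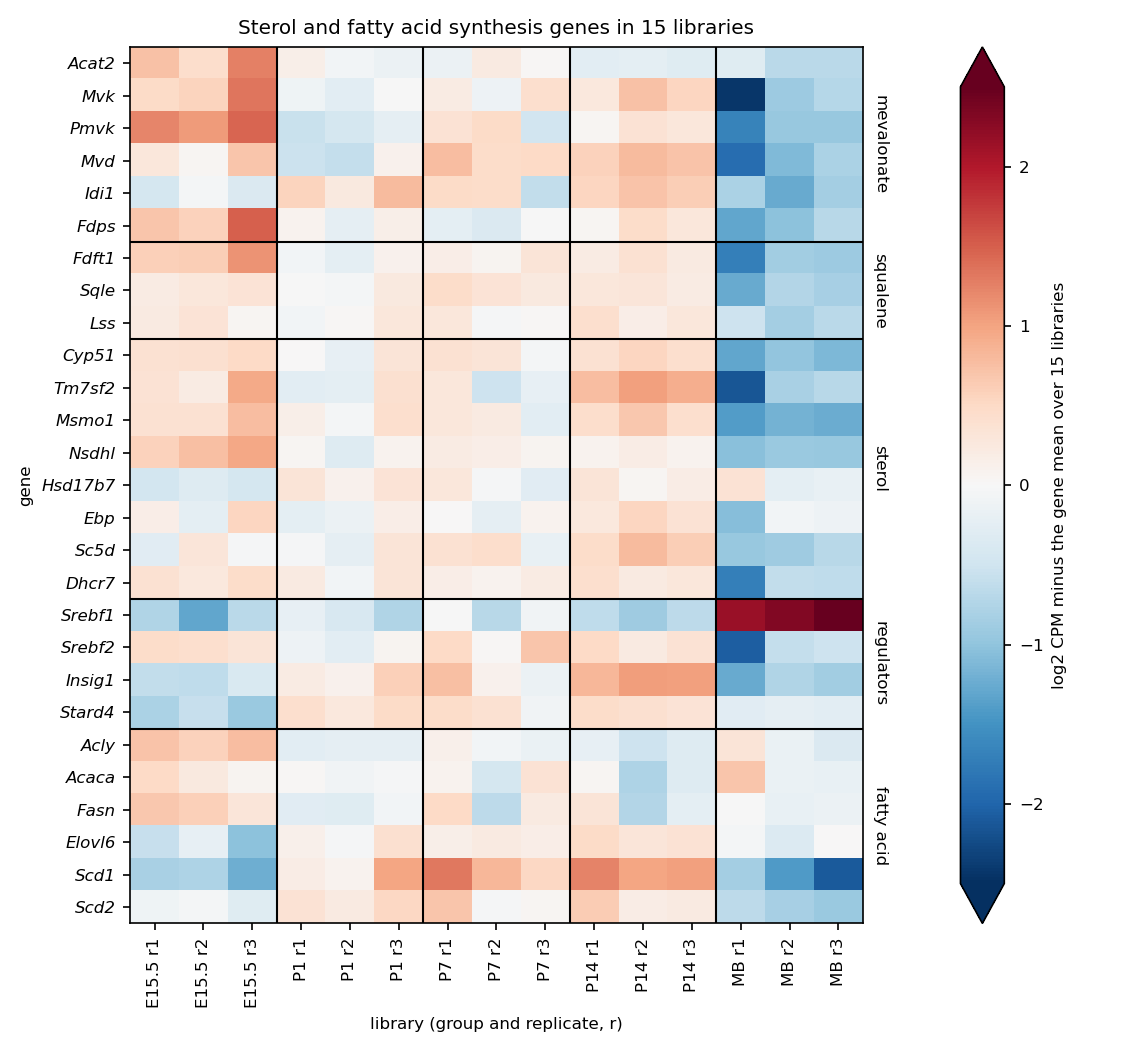
Levels of the 27 genes in 15 libraries, as log2 CPM minus the mean of each gene over all libraries (colour), with genes in rows by role and libraries in columns by group. In MB most sterol genes are blue and Srebf1 is the single deep red row, and E15.5 is red for Pmvk and Acly and blue for Scd1 and Stard4.

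From E15.5 to P1, the interval that spans birth, the genes moved in both directions: most mevalonate enzymes, Acly and Fasn fell, while Scd1, Elovl6, Insig1 and the sterol carrier Stard4 rose. By edgeR's quasi-likelihood test, at an adjusted p (FDR) under 0.05, 6 of the 27 genes were higher at P1 and 9 were lower, against 25.4% and 20.9% of all genes tested. The share called higher was near that of all genes. The median log2 fold change was -0.31 over the 27 genes and 0.03 over all genes.

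Among the mevalonate enzymes, 5 of the 6 measured fell and 1 rose. Pmvk, the phosphomevalonate kinase, was at 80.6, 71.7 and 94.8 CPM at E15.5 and at 23.3, 25.5 and 29.5 CPM at P1. Every P1 library lay far below every E15.5 library, with a log2 fold change of -1.66 ± 0.26 (SE, FDR 0.00012). Fdps, which makes farnesyl diphosphate, changed by -0.97 ± 0.25 (FDR 0.00501), and Acat2, the cytosolic acetoacetyl-CoA thiolase, by -0.87 ± 0.20 (FDR 0.00232). Idi1, the isopentenyl diphosphate isomerase, went the other way, with 7.41, 9.60 and 7.75 CPM at E15.5 and 14.6, 11.9 and 17.2 CPM at P1 (0.82 ± 0.28, FDR 0.0238).

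Later in the route, Fdft1, the squalene synthase, was lower at P1 (-0.85 ± 0.21, FDR 0.00429), as was Nsdhl, a sterol dehydrogenase (-0.82 ± 0.16, FDR 0.000603). Hsd17b7, the ketoreductase that works beside Nsdhl, rose by 0.67 (SE 0.19, FDR 0.0103). The other sterol enzymes did not pass the test. Sqle, for example, was at 219.8, 233.5 and 240.8 CPM at E15.5 and at 189.6, 183.3 and 224.9 CPM at P1, where the values overlapped (-0.22 ± 0.16, FDR 0.281).

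The regulators Srebf1 and Srebf2 did not pass the test at this step, but Insig1 and Stard4 did. Insig1 was at 83.7, 82.9 and 98.9 CPM at E15.5 and at 149.0, 137.8 and 195.1 CPM at P1, with no overlap (0.86 ± 0.22, FDR 0.00585). Stard4, a carrier that moves cholesterol between membranes, went from 48.5, 56.5 and 44.1 CPM to 112.2, 100.4 and 117.6 CPM (1.15 ± 0.16, FDR 5.82e-05). Every P1 library lay above every E15.5 library.

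In fatty acid synthesis, Acly fell and Scd1 rose. Acly was at 678, 618 and 712 CPM at E15.5 and at 346, 355 and 353 CPM at P1, a clear drop with tight P1 values (-0.93 ± 0.18, FDR 0.000862). Scd1, another stearoyl-CoA desaturase, rose from 15, 15.4 and 11.2 CPM to 30.1, 28.03 and 51.9 CPM (1.41 ± 0.32, FDR 0.00212), with the highest value in the library labelled P1 replicate 3. Elovl6, which lengthens the palmitate made by fatty acid synthase, rose by 0.74 (SE 0.19, FDR 0.00558). Fasn, the synthase itself, was at 1033.5, 977 and 801 CPM at E15.5 and at 529, 525 and 613 CPM at P1 (-0.75 ± 0.28, FDR 0.0395). Acaca (95.1, 79.6 and 70.5 against 68.4, 63.8 and 65.9 CPM; -0.31, FDR 0.359) and Scd2 (1103, 1157 and 965 against 1538, 1392 and 1720 CPM; 0.53, FDR 0.0578) did not overlap between groups but did not pass the test.

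Several of these calls were lost when a single library was left out, some with a fold change as large as with all libraries. That of Fasn was lost without E15.5 replicate 1 (-0.68) or 2 (-0.73) or without P1 replicate 1 (-0.72), 2 (-0.715) or 3 (-0.83), and that of Mvk, the mevalonate kinase (-0.97 ± 0.34, FDR 0.0299), without E15.5 replicate 3 (-0.69) or P1 replicate 1 (-0.98), 2 (-0.91) or 3 (-1.04). Mvd, which makes isopentenyl diphosphate (-0.67 ± 0.26, FDR 0.0471), lost its call without E15.5 replicate 1 (-0.72) or 3 (-0.53) or P1 replicate 1 (-0.57) or 2 (-0.55), and also without the filter on low counts (-0.68, FDR 0.0505), in a fit of these groups alone (-0.64, FDR 0.0592) and in the transcript table (-0.655, FDR 0.0543). Idi1 lost its call without E15.5 replicate 1 (0.75) or 3 (0.73) or the library labelled P1 replicate 3 (0.69). Within the 9 libraries of the fuller counting set, where E15.5 replicate 2 is the only library of its age and is assumed to vary like the other groups, the calls of Elovl6 (0.37), Fdps (-0.575), Mvd (-0.36), Idi1 (0.60) and Fasn (-0.82) were also lost. Astroglial markers moved with this step, from a sum of 364 to 490 CPM at E15.5 to 2938 to 4391 CPM at P1, as did the oligodendrocyte markers above. Endothelial markers went from 11.2 to 30.5 up to 376 to 567 CPM, pericyte and fibroblast markers from 17.3 to 33.5 up to 441 to 671 and microglial markers from 4.93 to 22.8 up to 75.7 to 130.2 and Purkinje cell markers from 91.6 to 163 up to 179 to 294, and GABAergic interneuron markers from 396 to 500 down to 156 to 213. The part of all these markers in the P1 values was not tested.

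**Figure D2:**
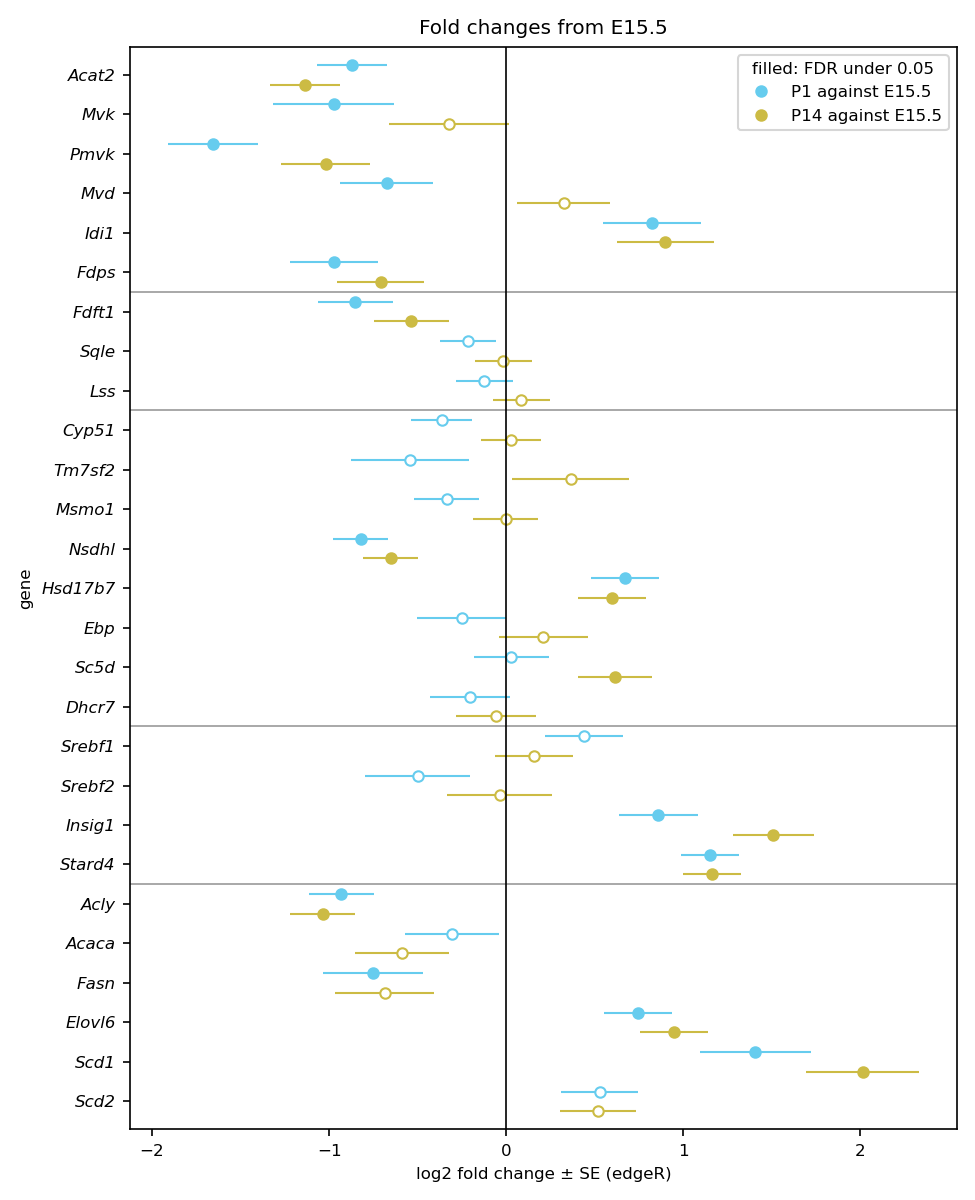
Log2 fold changes (x axis, ± SE) of the 27 genes (y axis, by role) for P1 and P14 against E15.5 from edgeR, where filled points have an FDR under 0.05. Pmvk, Acly and Acat2 lie left of zero at both ages, and Scd1, Insig1 and Stard4 lie right of it at both.

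Between the adjacent postnatal ages, none of the 27 genes passed the test. For P7 against P1, edgeR called 0 genes higher and 0 lower, against 1.40% and 1.74% of all genes, with 2 genes (Pmvk and Mvd) at an unadjusted p under 0.05. DESeq2 called Mvd higher (0.87, adjusted p 0.0291), and so did edgeR without the library labelled P1 replicate 3 (1.15, FDR 0.030). For P14 against P7, the counts were again 0 and 0, against 5.81% and 4.51% of all genes, with 4 genes (Tm7sf2, Msmo1, Srebf1 and Insig1) at an unadjusted p under 0.05. DESeq2 called Tm7sf2 (1.03, adjusted p 0.0218) and Insig1 (0.699, adjusted p 0.0309) higher at P14, and edgeR called Insig1 without P7 replicate 1 (0.96, FDR 0.0227). All P7 libraries belonged to the other counting set than P1 and P14, so set and age cannot be told apart in these steps.

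Over the whole postnatal interval, P14 against P1, edgeR called 1 gene higher and 0 lower, against 3.63% and 5.31% of all genes. Mvd was at 51.5, 49.4 and 80.9 CPM at P1 and at 111.1, 129.6 and 122.5 CPM at P14 (1.00 ± 0.26, FDR 0.0325). The groups did not overlap, and the highest P1 value was again in the library labelled P1 replicate 3. The call was lost without P1 replicate 1 (0.89) or 2 (0.87) or without P14 replicate 1 (1.06), 2 (0.95) or 3 (0.99). Few genes of any kind passed in these fits: in the same order 2, 5, 46, 9 and 9 of all genes were called higher. Without the library labelled P1 replicate 3 there were 4 calls, with Insig1 (0.81, FDR 0.0354), Sc5d, the lathosterol oxidase (0.75, FDR 0.0371), and Tm7sf2, a sterol reductase (1.16, FDR 0.0471). Calls rose over all genes as well, with 1479 of 15508 higher in that fit against 554 of 15259 with all libraries. A fit of P1 and P14 alone called 8 genes higher, beside 12.9% of all genes in that fit. With all libraries, Insig1 went from 149.0, 137.8 and 195.1 CPM to 227.3, 267.3 and 261.2 CPM without overlap (0.65 ± 0.22, FDR 0.0777), and Tm7sf2 from 16.2, 16.5 and 25.6 CPM to 33.2, 39.5 and 36.8 CPM (0.91 ± 0.34, FDR 0.0962). Of the 27 genes, 21 had a fold change above zero, with a median of 0.21 against 0.01 over all genes.

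P14 against E15.5 spans the whole course. Here 7 genes were higher and 6 lower, against 26.7% and 24.2% of all genes, shares close to the background. Scd1 rose most, from 15, 15.4 and 11.2 CPM at E15.5 to 62.4, 51.8 and 53.2 CPM at P14, a 4.04-fold difference with no overlap (2.01 ± 0.32, FDR 0.000115). Insig1 rose 2.85-fold (1.51 ± 0.23, FDR 7.27e-05), Stard4 2.24-fold (1.16 ± 0.16, FDR 3.73e-05) and Elovl6 1.93-fold (0.95 ± 0.19, FDR 0.000901).

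The falls at P14 included Acat2 and Acly, which act at the entry of the sterol and fatty acid routes. Acat2 was at 137.0, 111.9 and 197 CPM at E15.5 and at 68.1, 69.1 and 66.3 CPM at P14 (-1.13 ± 0.20, FDR 0.000259). Acly was at 358, 290.5 and 332 CPM at P14, below every E15.5 library (-1.04 ± 0.18, FDR 0.000294), and Pmvk at 35.5, 44.4 and 42.2 CPM (-1.02 ± 0.25, FDR 0.00348). Nsdhl fell as well (-0.65 ± 0.15, FDR 0.00263). In the middle of the sterol route Sqle (-0.02 ± 0.16), Cyp51, the lanosterol demethylase (0.03 ± 0.17), Msmo1, the methylsterol oxidase (-0.002 ± 0.18), and the regulator Srebf2 (-0.04 ± 0.30) did not pass the test, with FDR between 0.906 and 0.993.

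Some P14 calls were also lost when a single library was left out, in some cases without a smaller fold change. Fdft1 (-0.54 ± 0.21, FDR 0.0455) lost its call without E15.5 replicate 3 (-0.41) or P14 replicate 1 (-0.50), 2 (-0.59) or 3 (-0.51), and Fdps (-0.71 ± 0.25, FDR 0.0255) without E15.5 replicate 3 (-0.425) or P14 replicate 1 (-0.61) or 3 (-0.71). Sc5d (0.61 ± 0.21, FDR 0.0244) lost its call without E15.5 replicate 1 (0.48) or 3 (0.53) or P14 replicate 2 (0.52) or 3 (0.62), Hsd17b7 (0.60 ± 0.19, FDR 0.0172) without E15.5 replicate 1 (0.57) or 3 (0.51) or P14 replicate 1 (0.53), and Idi1 (0.90 ± 0.28, FDR 0.0135) without E15.5 replicate 1 (0.825) or 3 (0.79). Fdft1 also lost its call without the filter on low counts (-0.53, FDR 0.0567) and in the transcript table (-0.47, FDR 0.0701). Within the fuller counting set, again with E15.5 replicate 2 alone, the changes of Fdps (-0.33), Fdft1 (-0.38), Idi1 (0.66) and Sc5d (0.31) were smaller and their calls were lost. Over all 4 ages, 14 of the 27 genes differed, against 55.7% of all genes. With E15.5 left out of that test, 1 gene, Mvd, differed, against 15.4% of all genes. Oligodendrocyte markers were highest at P14, at 7377 to 7985 CPM, against 110 to 136 at E15.5. From E15.5 to P14 the sums also went from 364 to 490 up to 3787 to 4985 CPM for astroglia, from 11.2 to 30.5 up to 691 to 725 for endothelium, from 17.3 to 33.5 up to 777 to 908 for pericytes and fibroblasts and from 4.93 to 22.8 up to 128 to 185 for microglia, and from 396 to 500 down to 90.6 to 137 for GABAergic interneurons, while Purkinje cell sums overlapped. Their part in the P14 values was not tested.

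MB was compared with P7 precursors, and here the sterol route was lower almost throughout. Of the 27 genes, 20 were lower in MB and 1, Srebf1, was higher, against 20.7% and 13.7% of all genes. The median log2 fold change was -1.07 over the 27 genes and 0.02 over all genes. Of the 17 sterol enzymes measured, 15 were lower, and their summed level fell from 1412 ± 107 CPM at P7 to 651 ± 81.1 CPM in MB (SD, n = 3). Of the 6 fatty acid genes, 2 were lower, Scd1 and Scd2.

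**Figure D3:**
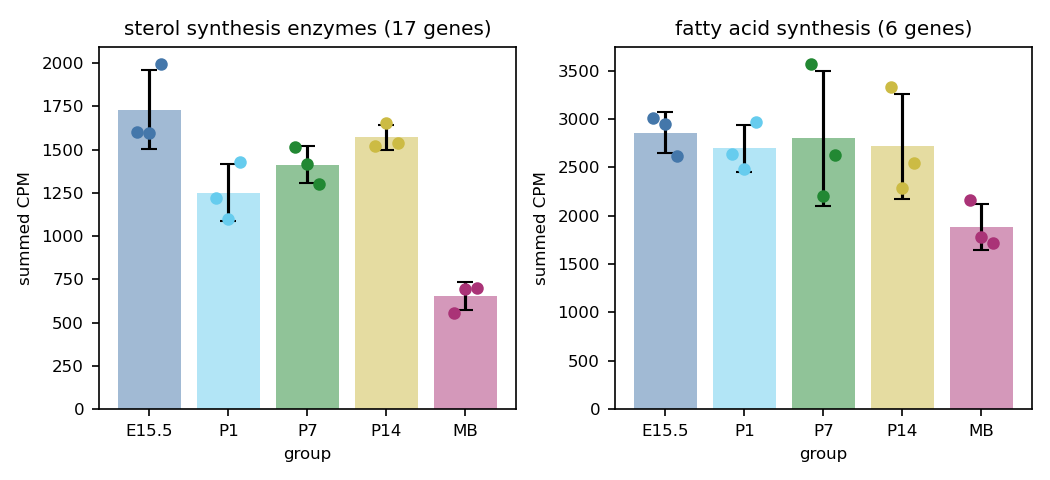
Summed CPM of the 17 sterol synthesis enzymes (left) and the 6 fatty acid synthesis genes (right) in each library (points), with the mean and SD of 3 libraries per group (bars and error bars). The sterol sum in MB, 651 CPM, lies below every precursor group, while the fatty acid sum is 1885 ± 240 CPM in MB and 2800 ± 696 CPM at P7.

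The 2 SREBP genes moved in opposite directions. Srebf1 (ENSMUSG00000020538, mm9 chromosome 11, 60012591 to 60034106) was at 216.0, 134.3 and 203.5 CPM at P7 and at 970.4, 1081 and 1258 CPM in MB. Every tumour library lay far above every P7 library, a 5.98-fold difference (2.58 ± 0.23, FDR 9.37e-07). Srebf2 (ENSMUSG00000022463, mm9 chromosome 15, 81977696 to 82035806) was at 455, 332 and 524 CPM at P7 and at 77.3, 214.3 and 227.0 CPM in MB (-1.34 ± 0.30, FDR 0.00282). The tumours lay below every P7 library, and MB replicate 1 was far below the other tumours. The level of Srebf1 per length was 0.55, 0.47 and 0.451 of that of Srebf2 in the P7 libraries and 14.6, 5.85 and 6.43 times it in the MB libraries.

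Insig1 (ENSMUSG00000045294, mm9 chromosome 5, 28397952 to 28405201), whose product retains SREBP precursors and whose promoter is shown above, was at 217.2, 138.6 and 116.0 CPM at P7 and at 53.5, 76.8 and 70.2 CPM in MB. The groups did not overlap (-1.23 ± 0.23, FDR 0.000565). Stard4 went from 116.4, 109.0 and 79.1 CPM to 68.9, 71.9 and 70.1 CPM (-0.53 ± 0.16, FDR 0.0179), with tight tumour values just below the lowest P7 library. Its call was lost without P7 replicate 1 (-0.38) or 2 (-0.48).

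All 6 mevalonate enzymes measured were lower in MB. Mvd was at 127.8, 102.8 and 105.0 CPM at P7 and at 20.0, 34.8 and 43.1 CPM in MB, a 3.43-fold difference (-1.78 ± 0.27, FDR 0.000115). The highest tumour value lay far below the lowest P7 value. Mvk was at 52.2, 41.3 and 60.4 CPM at P7 and at 8.37, 24.1 and 27.6 CPM in MB (-1.36 ± 0.35, FDR 0.00654), again lowest in MB replicate 1. Pmvk (-1.33 ± 0.25, FDR 0.000803) and Idi1 (-1.15 ± 0.28, FDR 0.00454) were lower by similar amounts. The differences of Fdps (-0.78 ± 0.25, FDR 0.0231) and Acat2 (-0.59 ± 0.20, FDR 0.0297) were smaller. Fdps lost its call without P7 replicate 1 (-0.76) or 3 (-0.68) or MB replicate 1 (-0.65) or 2 (-0.76), and Acat2 without P7 replicate 2 (-0.50) or 3 (-0.60) or MB replicate 2 (-0.53) or 3 (-0.53). The gene table held 27.3% to 45.8% of the transcript table's count for Acat2 and 52.1% to 60.2% for Fdps, and the transcript table gave -0.56 (FDR 0.0396) and -0.81 (FDR 0.0267).

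From squalene on, the first sterol steps fell together. Sqle (ENSMUSG00000022351, mm9 chromosome 15, 59146636 to 59162747), the squalene epoxidase and an oxygen-dependent control point of the route, was at 262.7, 241.7 and 225.0 CPM at P7 and at 79.4, 115.4 and 106.8 CPM in MB (-1.27 ± 0.16, FDR 2.22e-05). The tumour libraries all lay well below the P7 libraries. Fdft1 (-1.30 ± 0.21, FDR 0.000234) and Lss, the lanosterol synthase (-0.78 ± 0.16, FDR 0.00154), were also lower. Fdft1 shares 769 exonic bases with Ctsb on the opposite strand, and without a stated strand setting reads there cannot be told apart.

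In the conversion of lanosterol, 6 of 8 enzymes were lower and 2, Hsd17b7 and Ebp, did not pass the test. Msmo1 was at 93.5, 89.98 and 64.2 CPM at P7 and at 29.2, 34.1 and 32.7 CPM in MB (-1.37 ± 0.19, FDR 4.71e-05). Cyp51 was at 285, 274 and 210.5 CPM at P7 and at 89.3, 110.8 and 100.2 CPM in MB (-1.36 ± 0.17, FDR 2.31e-05). Both were tight within the tumours and well below every P7 library. Nsdhl (-1.12 ± 0.16, FDR 5.19e-05), Sc5d (-1.08 ± 0.21, FDR 0.00106) and Dhcr7, the reductase of the last step to cholesterol (-1.05 ± 0.23, FDR 0.00218), were also lower. Tm7sf2 (-0.97 ± 0.34, FDR 0.0359) lost its call without P7 replicate 1 (-0.68) or 3 (-1.02) or MB replicate 1 (-0.64). Hsd17b7 was at 56.4, 45.5 and 38.1 CPM at P7 and at 59.2, 38.9 and 40.5 CPM in MB, with the groups interleaved (-0.02 ± 0.19, FDR 0.964). Ebp, the sterol isomerase, was at 35.3, 30.0 and 37.4 CPM at P7, and in MB at 16.7 CPM in replicate 1 but at 33.4 and 32.4 CPM in the others (-0.32 ± 0.25, FDR 0.37). The promoter windows of Hsd17b7 and Ebp held 3 and 2 CCAAT boxes, so the box was not limited to the genes that were lower.

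In fatty acid synthesis the core enzymes did not pass the test. Fasn was at 916, 410.0 and 753 CPM at P7 and at 640.3, 571 and 580.1 CPM in MB, with the tumours inside the P7 range (-0.22 ± 0.28, FDR 0.599). Acly was at 455, 397 and 368 CPM at P7 and at 517, 370.3 and 321 CPM in MB (-0.01 ± 0.18, FDR 0.97). Acaca was at 71.6, 49.6 and 86.1 CPM at P7 and at 108.3, 60.4 and 59.1 CPM in MB (0.14 ± 0.27, FDR 0.738), its highest value in a tumour library. Elovl6 was at 135.4, 142.8 and 137.1 CPM at P7 and at 118.9, 96.5 and 122.6 CPM in MB, below P7 without overlap but not past the test (-0.30 ± 0.19, FDR 0.255).

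The desaturases were lower. Scd1 (ENSMUSG00000037071, mm9 chromosome 19, 44468941 to 44482199) was at 65.9, 46.6 and 37.4 CPM at P7 and at 14.6, 9.80 and 6.16 CPM in MB, a 4.91-fold difference (-2.30 ± 0.32, FDR 5.76e-05). Scd2, its neighbour on chromosome 19 (44368166 to 44381354), was at 1924, 1163 and 1242 CPM at P7 and at 760.0, 673 and 625 CPM in MB, a 2.10-fold difference (-1.07 ± 0.22, FDR 0.0013). Neither gene overlapped between the groups. These 2 genes are close in sequence and can share reads, and the gene table held 49.7% to 90.7% of the transcript table's count for Scd1, where the difference was -1.99 (FDR 1.65e-05).

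**Figure D4:**
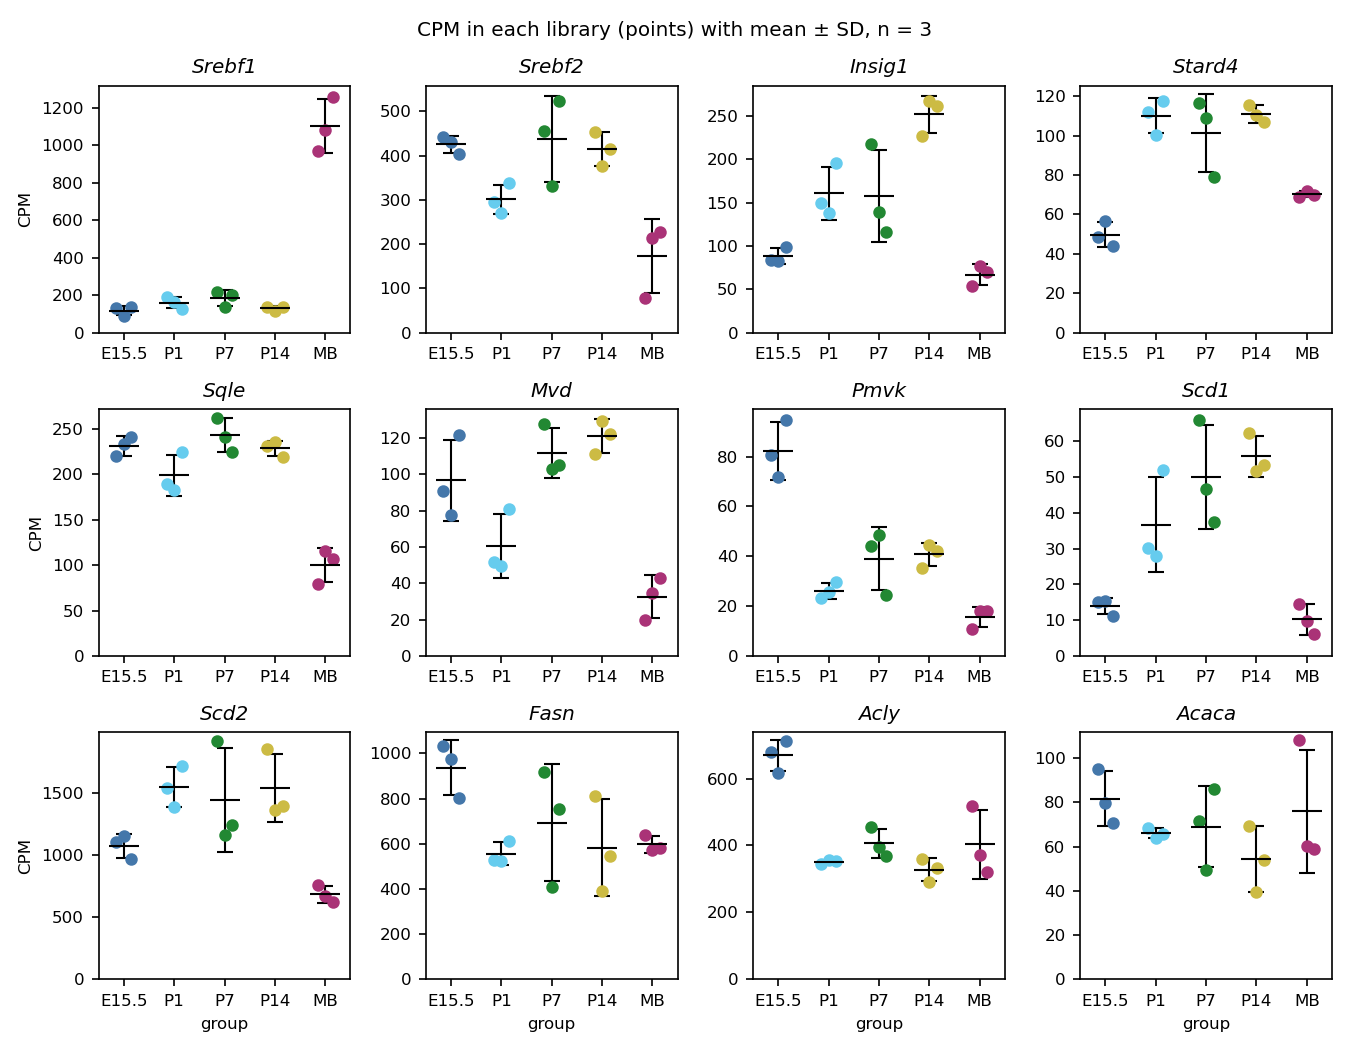
CPM (y axis) of 12 genes in each library (points) by group (x axis), with the mean and SD of 3 libraries. Srebf1 is highest in MB, Srebf2, Sqle and Mvd are lowest in MB, and Fasn, Acly and Acaca overlap between MB and P7.

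Within the counting set shared by P7 and MB replicate 1, that library is the only tumour and is assumed to vary like the other groups. The number of genes called in that set is therefore not given. There the calls of Acat2 (-0.31), Idi1 (-0.93), Fdps (-1.05), Lss (-0.57), Stard4 (-0.51) and Scd2 (-0.88) were lost, while Mvk (-2.57), Mvd (-2.44), Srebf2 (-2.45), Tm7sf2 (-1.98) and Dhcr7 (-1.81) were further below P7 than with all tumours. A fit of P7 and MB alone lost the calls of Acat2 (-0.56), Mvk (-1.32), Idi1 (-1.12), Fdps (-0.75), Tm7sf2 (-0.94) and Stard4 (-0.50). Markers of other cell types also moved with MB: of 12 oligodendrocyte markers 9 were lower than at P7 and 2 higher. The latter were Pdgfra, at 217.1, 288.6 and 204.6 CPM at P7 and at 813.3, 274.1 and 384.2 CPM in MB (1.05 ± 0.32, FDR 0.0191), and Olig2 (1.21 ± 0.41, FDR 0.0316), both overlapping between the groups. Olig1 did not pass the test (0.83, FDR 0.175). Of 8 astroglial markers 6 were lower and 1 higher, Slc1a2, at 572.1 to 805.9 CPM in MB and 273.5 to 441.2 at P7. Astroglial markers summed to 1443 to 1959 CPM against 2195 to 4379, endothelial markers to 17.6 to 31.5 against 285 to 348, pericyte and fibroblast markers to 16.6 to 24.1 against 305 to 472, Purkinje cell markers to 25.7 to 41.3 against 217 to 742, GABAergic interneuron markers to 1.56 to 3.05 against 187 to 274, and microglial markers to 136 to 394 against 42.8 to 136. Their part in the sterol differences was not tested.

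A comparison of MB with E15.5 was added after the data were seen. Against E15.5, 14 of the 17 sterol enzymes were lower in MB, and of the 27 genes 17 were lower and 2 higher, against 24.2% and 26.0% of all genes. The sterol sum was 1730 ± 228 CPM at E15.5 (SD, n = 3). Pmvk (-2.41 ± 0.26, FDR 2.72e-06), Mvk (-2.02 ± 0.35, FDR 0.000227) and Fdps (-1.96 ± 0.26, FDR 1.45e-05) were far lower in MB. Srebf1 was 9.36-fold higher (3.23 ± 0.24, FDR 6.56e-08) and Srebf2 2.46-fold lower (-1.30 ± 0.30, FDR 0.00221). Markers of other cell types differed between these groups as well. At E15.5 oligodendrocyte markers summed to 110 to 136 CPM against 699 to 988 in MB, of which Pdgfra alone gave 274.1 to 813.3, and astroglial markers to 364 to 490 against 1443 to 1959. Single markers went the other way: Gja1, of astroglia, was at 49.0 to 55.6 CPM at E15.5 and 17.3 to 28.8 in MB, Mog, of myelin, at 4.41 to 9.35 and 0.912 to 1.20, and Kdr, of endothelium, at 6.67 to 8.25 and 1.43 to 4.84. Endothelial sums overlapped (11.2 to 30.5 and 17.6 to 31.5), microglial sums were lower at E15.5 (4.93 to 22.8 against 136 to 394), and GABAergic interneuron markers were at 396 to 500 CPM at E15.5 against 1.56 to 3.05 in MB. Their part in this comparison was not tested.

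The genes called higher at P1 or P14 than at E15.5 stood otherwise, except Sc5d, which was lower in MB than at E15.5 (-0.85 ± 0.21, FDR 0.00362). Insig1 (-0.41 ± 0.22, FDR 0.144), Scd1 (-0.44 ± 0.31, FDR 0.256) and Idi1 (-0.68 ± 0.28, FDR 0.0548) did not pass the test between MB and E15.5. Neither did Hsd17b7 (0.41 ± 0.19, FDR 0.09) or Elovl6 (0.44 ± 0.19, FDR 0.0673). Stard4 was higher in MB than at E15.5 (0.50 ± 0.16, FDR 0.0169), the reverse of its direction against P7. Acly, which had fallen after E15.5, was lower in MB than at E15.5 (-0.73 ± 0.18, FDR 0.00364).

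Against P14, 21 genes were lower in MB and 1 higher, against 27.2% and 22.9% of all genes, with a median of -1.21 over the 27 genes and 0.01 over all genes. This comparison shares its tumour libraries with the others. Of all 56 cell type markers, 39 were lower in MB than at P14 and 9 higher, beside 27.2% and 22.9% of all genes. Oligodendrocyte markers summed to 7377 to 7985 CPM at P14 against 699 to 988 in MB. Astroglial sums were 3787 to 4985 against 1443 to 1959 CPM. Endothelial sums were 691 to 725 against 17.6 to 31.5 CPM, while microglial sums overlapped (128 to 185 and 136 to 394). The part of these markers in the differences was not tested. Srebf1 was at 138.4, 117.6 and 137.9 CPM at P14, and MB was 8.40-fold higher (3.07 ± 0.24, FDR 1.72e-07). Scd1 was lower by 2.45 on the log2 scale (-2.45 ± 0.32, FDR 2.06e-05), Tm7sf2 by 1.99 (-1.99 ± 0.35, FDR 0.000228), Insig1 by 1.91 (-1.91 ± 0.23, FDR 8.67e-06) and Mvd by 1.89 (-1.89 ± 0.27, FDR 4.16e-05). Tm7sf2, at 33.2, 39.5 and 36.8 CPM at P14 and 4.44, 11.1 and 12.1 CPM in MB, was well separated. It shares 380 exonic bases with Vps51 on the same strand, and how reads there were counted is not given in the sources used here. Sqle was at 231, 236 and 219.7 CPM at P14 (-1.19 ± 0.16, FDR 2.62e-05), and Srebf2 at 454, 377 and 414 CPM (-1.26 ± 0.30, FDR 0.00271).

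Hsd17b7 (-0.19, FDR 0.425), Acat2 (-0.27, FDR 0.271), Acly (0.30, FDR 0.182), Acaca (0.48, FDR 0.144) and Fasn (0.04, FDR 0.926) did not pass the test against P14. The transcript table alone called Acaca higher (0.61, FDR 0.0367), and the gene table held 47.9% to 60.5% of its transcript count. The call of Ebp (-0.75 ± 0.25, FDR 0.0228) was lost without P14 replicate 2 (-0.67) or MB replicate 1 (-0.49), and in a fit of these groups alone (-0.74). That of Elovl6 (-0.50 ± 0.19, FDR 0.0392) was lost without P14 replicate 1 (-0.46), 2 (-0.54) or 3 (-0.51) or MB replicate 2 (-0.40), and with the replicate number as a block (FDR 0.0605). The other 20 calls were kept in every alternative tried.

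**Figure D5:**
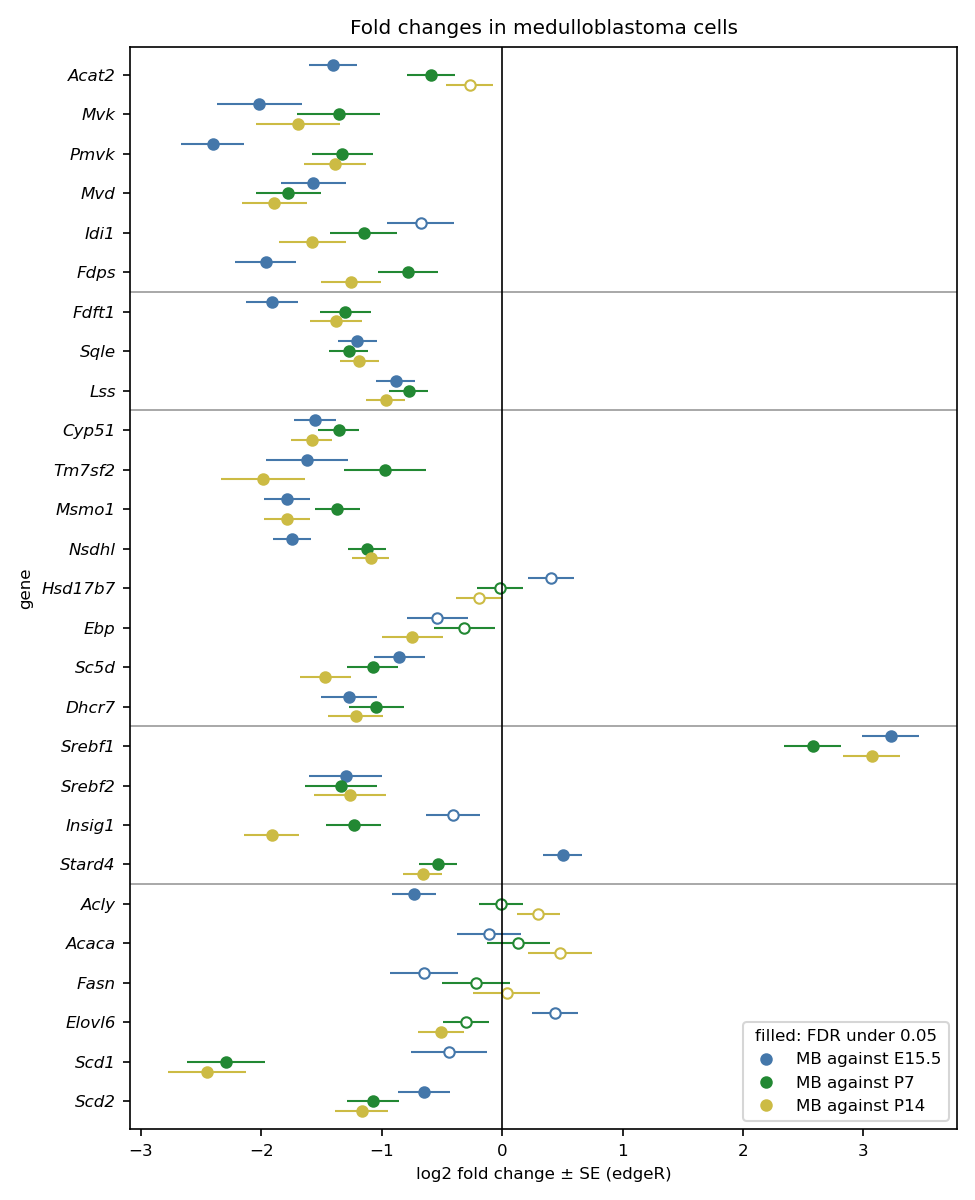
Log2 fold changes (x axis, ± SE) of the 27 genes (y axis, by role) in MB against E15.5, P7 and P14 from edgeR, where filled points have an FDR under 0.05. Srebf1 lies between 2.58 and 3.23, most sterol enzymes lie between -2.41 and -0.59, and Fasn and Acaca have open points in each comparison.

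Around Srebf1, the genes within 100 kilobases were looked at after its value was seen. Both that were tested, Rai1 (mm9 chromosome 11, 59989381 to 60012699; 1.35 ± 0.28, FDR 0.00161) and Tom1l2 (60040216 to 60166407; 0.93 ± 0.19, FDR 0.00119), were also higher in MB than at P7, by less than Srebf1. Of all genes tested, 13.7% were higher in MB than at P7. Rai1 lies on the opposite strand and shares 109 exonic bases with Srebf1. Another transcript model on the strand of Srebf1, not assigned to a gene, also overlaps the exons of Srebf1, and its counts were not examined. Its overlap and that of Rai1 summed to 4256 bases, against 4299 exonic bases of Srebf1. Both transcripts assigned to Srebf1 share most of their exons and so most of their reads, and both were higher in MB. The longer was at 141 to 224 CPM at P7 and 1042 to 1321 CPM in MB, and the shorter at 138 to 220 CPM and 1034 to 1309 CPM. These counts do not separate the promoters of Srebf1.

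The rest of the pathway was followed in a list of 39 genes, of which 38 were tested. Against E15.5, 12 were higher and 4 lower at P1, beside 25.4% and 20.9% of all genes. At P14, 20 were higher and 4 lower, beside 26.7% and 24.2% of all genes. The largest rises at P14 were in Elovl7, an elongase of long fatty acids (5.68 ± 0.60, FDR 2.79e-06), and Acacb, the mitochondrial acetyl-CoA carboxylase (3.204 ± 0.70, FDR 0.00148). The largest falls were in Slc25a1, the mitochondrial citrate carrier that feeds Acly (-1.12 ± 0.24, FDR 0.00127), and Tecr, the reductase of fatty acid elongation (-0.74 ± 0.24, FDR 0.0195). At P1 Slc25a1 (-1.77 ± 0.24, FDR 4.75e-05) and Tecr (-1.22 ± 0.25, FDR 0.00104) were lower, Elovl7 (4.61 ± 0.58, FDR 2.01e-05) was higher, as was Abca1, a cholesterol exporter (3.198 ± 0.55, FDR 0.000296).

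At P7, 1 of the 38 was higher than at P1 and 0 lower, beside 1.40% and 1.74% of all genes, and 6 had an unadjusted p under 0.05. Fads2, a desaturase of polyunsaturated fatty acids, was higher at P7 than at P1 (0.83 ± 0.15, FDR 0.014) and lower at P14 than at P7 (-0.58 ± 0.15, FDR 0.0241). At P14 against P7, 4 genes were higher and 1 lower, beside 5.81% and 4.51% of all genes, the rises led by Elovl7 (1.99 ± 0.49, FDR 0.0224) and Elovl1, an elongase of very long fatty acids (1.33 ± 0.27, FDR 0.011). P14 against P1 gave 2 higher, Cyp46a1, the neuronal cholesterol 24-hydroxylase (1.51 ± 0.40, FDR 0.032), and Acss2, the cytosolic acetyl-CoA synthetase (0.95 ± 0.23, FDR 0.0231), and 1 lower, Lbr, a sterol reductase of the nuclear membrane (-0.68 ± 0.17, FDR 0.0243), beside 3.63% and 5.31% of all genes.

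In MB, 9 of the 38 were lower than at P7 and 2 higher, beside 20.7% and 13.7% of all genes. Against P14, 16 were lower and 2 higher, beside 27.2% and 22.9% of all genes. Elovl7 (-3.21 ± 0.53, FDR 0.000246) and Cyp46a1 (-2.75 ± 0.43, FDR 0.000139) were furthest below P7. Both genes higher than at P7 were named: Mbtps1, the site-1 protease that cuts SREBP precursors (0.52 ± 0.15, FDR 0.0113), and Elovl5, an elongase (0.39 ± 0.14, FDR 0.037). Mbtps1 (0.73 ± 0.15, FDR 0.00072) and Mbtps2, the site-2 protease (0.52 ± 0.19, FDR 0.033), were the 2 higher than at P14. Elovl7 (-5.20 ± 0.57, FDR 3.88e-06) and Cyp46a1 (-3.90 ± 0.44, FDR 5.32e-06) were again the furthest below P14.

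Libraries of a group also varied in how the 27 genes lay. MB replicate 1, the only tumour of its counting set, held the lowest of the tumour values for 13 of the 17 sterol enzymes and the highest for 5 of the 6 fatty acid genes. At P14, replicate 1 held the highest and replicate 2 the lowest value for all 6 fatty acid genes, with Fasn at 813 and 389 CPM and Scd2 at 1856 and 1362 CPM. The sterol sums of these 2 libraries were 1521 and 1651 CPM, in the opposite order. The library labelled P1 replicate 3 was the highest P1 library for 16 of the 17 sterol enzymes, with a sum of 1426 CPM against 1221 and 1100.4 in the others. It also held the highest P1 sums of oligodendrocyte, astroglial, endothelial, pericyte and fibroblast, microglial and granule neuron precursor markers. Its sums of Purkinje cell and GABAergic interneuron markers were not the highest. The part of these markers in its sterol values was not tested.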

How the data were processed

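The submitters' processing notes name Trimmomatic, TopHat, StringTie and HTSeq and the build mm9, without versions or roles. The strand setting is not given in the sources used here. The authors deposited raw read counts, not normalized, in 3 tables per library: per Ensembl gene (21889 genes), per transcription start site model and per transcript. The gene table was the main table, and its summary lines, which name no gene, were left out of library sizes and tests (44.6% to 60.5% of a library's records). Symbols came from the reference tables for 20358 genes. Counts were scaled by TMM and fitted with edgeR 4.0.16 (R 4.3.3) by its quasi-likelihood method, all 15 libraries together, with a mean for each group and 10 residual degrees of freedom, after filterByExpr (minimum count 10, minimum total 15). Benjamini-Hochberg adjusted p-values (FDR) cover all 15259 genes, and a gene was called under 0.05. The standard error is the log2 fold change divided by the square root of F. Levels per length divide CPM by exon length in the mm9 transcript model. Positions are mm9, 1-based. Marker and pathway lists and the named genes were chosen with earlier results of these data known. All 28 listed genes were named, those with the largest called changes and 8 fixed genes with values per library, and up to 3 pathway genes per contrast and direction. Alternatives were RLE scaling, DESeq2 1.42.0, no filter, the other count tables, fits of the groups compared, a replicate block, a single counting set and each library left out. E15.5 in place of P7 for MB and a test of the postnatal ages alone were added after the data were seen. The script was tested on simulated data. Reads are not independent molecules, so depth bounds counting error only.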

Additional observations from a re-analysis of the deposited data

How the results depend on the processing

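Of the 27 genes' values under the alternatives, 2401 kept their call status, 87 lost a call, 46 gained one and 1 reversed, Stard4 in MB with E15.5 in place of P7 (0.503). Of the genes called, 9 of 15 at P1 against E15.5, 8 of 13 at P14 against E15.5, 11 of 21 in MB against P7, 20 of 22 in MB against P14 and 0 of 1 at P14 against P1 were kept in every alternative. For MB against P7 the alternatives included E15.5 in place of P7, which is another comparison and not another processing. Insig1 (-0.405, FDR 0.144) and Scd1 (-0.44, FDR 0.256) lost their calls only there. The start site table, which lacks Srebf1 and in which 16 of the 27 genes were tested, gave 3 higher at P1 and 4 at P14 against E15.5. Over all 16354 genes of that fit, 4004 and 4248 were higher. In MB against P7 it gave 11 lower and 0 higher, beside 3318 and 2154 of all genes. In MB against P14 it gave 12 lower and 0 higher, beside 4350 and 3648. Over 4 ages 9 differed, beside 8846. With DESeq2, 1 gene was higher at P7 against P1, 2 at P14 against P7 and 3 at P14 against P1. Over all genes it called 511 of 15400, 1426 of 16142 and 1211 of 15030 higher. Fits of the groups compared gave 1 higher at P14 against P7 and 8 at P14 against P1, the latter also within its counting set (8). Over all genes, these fits called 2257 of 14810, 1919 of 14833 and 2180 of 15574 higher. The transcript table gave 2 higher in MB against P14, beside 4080 of 17370 over all genes. With E15.5 in place of P7, 2 were higher in MB, and among postnatal ages alone 1 differed, beside 26.0% and 15.4% of all genes. Causes other than fewer genes or libraries were not tested.

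Leaving out a library gave 5 to 6 higher and 6 to 8 lower at P1 and 4 to 7 higher and 4 to 6 lower at P14 against E15.5, 0 to 1 higher and 0 lower in each adjacent postnatal step, 0 to 4 higher and 0 lower at P14 against P1, 1 higher and 17 to 19 lower in MB against P7, 1 higher and 19 to 21 lower in MB against P14, and 10 to 15 over 4 ages. In the fits of P14 against P1 with a library left out, 2 to 1479 of all genes were called higher. Same-numbered libraries did not deviate together (6 of 30 pairs correlated above 0.1, range -0.312 to 0.332). With the replicate number as a block, 7 genes were higher and 9 lower at P1, 7 higher and 8 lower at P14 against E15.5, 0 in either adjacent postnatal step, 1 higher at P14 against P1, 1 higher and 20 lower in MB against P7 and against P14, and 13 differed over 4 ages. Depth limits Tm7sf2 and Idi1 most, with as few as 112 and 115 reads in a library.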
